A study of Mus musculus with 4 samples.

Results

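Developmental transcription factors were followed in C17.2 cells, a clonal mouse line of neural progenitors immortalised with the v-myc oncogene and derived from neonatal cerebellum. The cells behind all 4 samples had been given 7.38 mM AAPH, an azo compound that decays into peroxyl radicals, for 12 h. The 2 control samples received AAPH alone, and in the 2 berberine samples 1.69 µM berberine, a plant alkaloid, was present as well. No sample without AAPH was analysed here. The set holds 90 genes out of the 8519 named genes of the arrays, chosen by the letters of their symbols: Hox, Sox, Pax, Fox, Lhx, Klf, Id, Hes, Hey, Ascl, Olig, Nkx, Pou, Gata, Tbx, Dlx, Emx, Otx, Zic, Meis and Msx, together with Six4 and Six5. Sox9 and Olig2 were left out by the rule, and no named gene matched its patterns for Neurod, Neurog and Irx. Of the 90 genes, 34 are homeobox genes, 21 forkhead, 7 SOX, 9 bHLH or Id, 11 zinc finger (Klf, Gata, Zic) and 4 T-box genes. The other 4 match by their letters only: the oxidoreductase genes Foxred1 and Foxred2, the B cell coactivator Pou2af1, and Msx1as, the antisense transcript of Msx1.

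Homeobox, SOX, forkhead, bHLH, Klf, Gata and T-box proteins bind DNA through a domain shared within their family, and together they set cell identity in the embryo. In neural progenitors, Notch signalling raises Hes and Hey repressors and BMP signalling raises Id proteins, which hold back the proneural bHLH activators by occupying their E protein partners. Hox genes mark position along the body axis, and several SOX and forkhead factors mark progenitor, neuronal or glial fates.

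A gene has a name here only if the authors had called its probe changed on these same arrays, so members could hardly fail to differ between the groups, and the counts below describe the called genes of each family. Unchanged relatives are not analysed here. In the authors' deposited table no ratio was smaller than 1 on the log2 scale. The members nearest to that edge were Hoxa4, with 1.01, and Otx1, with −1.15. Intensities are given as deposited, in the arrays' arbitrary units. Fitted differences are berberine minus control in log2 after quantile normalization, with the standard error (SE), and adjusted p-values come from limma over all 26423 probes with 2 arrays in each group. The labels do not say that the arrays of a group came from separate cultures, so a p-value measures the spread between arrays. Fewer cells of a kind and less RNA in each cell cannot be told apart in such samples.

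In the fit 64 members (71.1%) were higher with berberine and 26 (28.9%) were lower. The 64 include Foxf1, Gata2 and Tbx18, whose probes disagree and which are counted by the probe with the higher mean level. Of all probes 62.7% were called, 40.2% higher and 22.5% lower, and of all named genes 99.7%, with 55.6% higher and 44.1% lower. The median difference of the members was 1.45, against 1.22 for all named genes and 0.39 for all probes. On the values as deposited, 39 members were called higher, 26 lower, and 25 of the rises lost their call, with a median of 0.84 against 0.45 for all named genes. On that scale 33.2% of all probes and 74.4% of named genes were called. Of all probes 13.4% were higher and 19.8% lower, and of named genes 31.1% and 43.3%. All 90 kept their sign, and each of the 26 falls kept its call. The deposited intensities of both berberine arrays lay above both control arrays in 60 members, below in 26, and overlapped in 4 (Foxd2, Hoxd13, Tbx10 and Pou2af1). Among all probes 66.9% did not overlap, 35.3% above and 31.6% below, and among named genes 96.4%, with 52.2% above and 44.2% below.

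**Figure D1:**
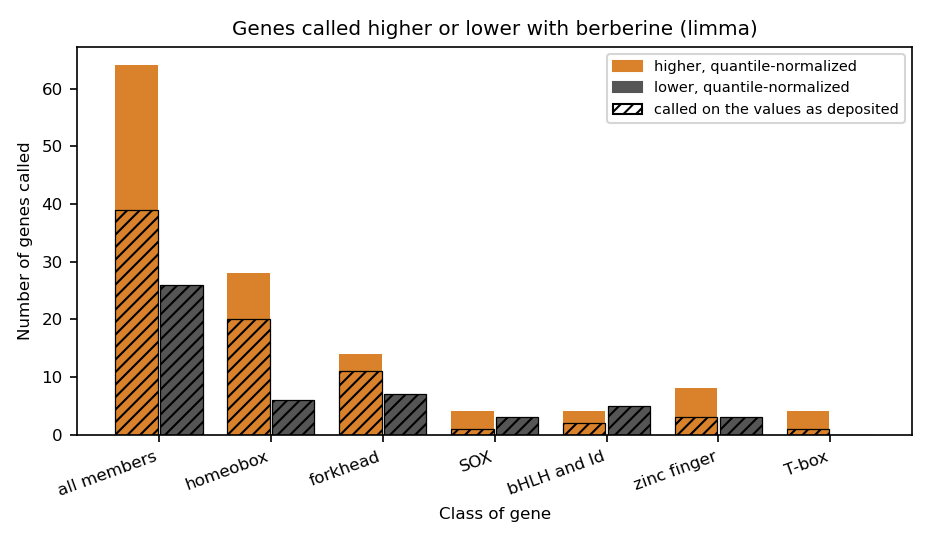
Number of member genes called higher (orange) or lower (grey) with berberine by limma on quantile-normalized values, for all 90 members and for 6 classes, with 2 arrays in each group. Hatching marks the part also called on the values as deposited: all 26 falls, but 39 of the 64 rises.

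Falls and rises differed in how far they went, among the members as among all named genes. Fitted differences ran from −7.19 to 3.58 over the members and from −12.51 to 4.37 over all named genes. Among the 26 members that fell, 9 were detected by the authors' detection p-value in the controls only (10.0% of the members, 16.6% of named genes), 16 in both groups and 1 in neither. Their median control level was log2 10.46, and their median with berberine 7.86. Among the 64 that rose, 58 were detected in both groups, 5 with berberine only (5.56% of the members, 3.74% of named genes) and 1 in neither, and the median level went from 8.72 to 10.98. The largest rise, that of Foxn1, was 12.0-fold, whereas 3 falls exceeded that size even as lower bounds. For a gene not detected in a group the text gives such a bound, "at least N-fold", set on each array against its detection limit, or against the probe's own value where that was higher. The limit is the lowest level of any probe that the authors' detection p-value passed in the group.

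The 3 steepest falls were in Sox4, Foxd3 and Klf4. Sox4, a SoxC factor that promotes neuronal differentiation and progenitor survival, went from intensities of 24051 and 18803 under AAPH alone to 119 and 164 when berberine was added, at least 140-fold lower (adjusted p = 0.000186). Foxd3, a factor of pluripotent cells and neural crest, went from 8683 and 7635 to 98 and 113, at least 56.8-fold lower (0.000186). Klf4, known as a reprogramming factor, went from 3392 and 2815 to 42 and 65, at least 16.5-fold lower (0.000186). In all 3 the berberine arrays fell below detection, and the arrays within a group lay far closer to each other than the groups did.

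The promoters of these and other members were read to show what sequence lies upstream of genes that moved so differently. RefSeq promoter entries of GRCm38.p6 matched 57 of the 90 members, 20 that fell and 37 that rose. The 250 bases before the start are printed for Sox4, Foxd3, Klf4 and Id2, which fell, and for Lhx4, which rose. Capitals mark 4 motifs searched on both strands, namely the TATA box TATAAA, the GC box GGGCGG, the CCAAT box CCAAT, and the E-box CACGTG, a site of bHLH proteins. Other motifs were searched as well and are not marked. These were the E-box CAGCTG, the N-box CACNAG, and letters of RBPJ, Hox, SOX and forkhead sites. Adjoining motifs may share bases, and a run of capitals can then hold more than 1 of them.
Sox4, chr13:28953700-28953949, minus strand: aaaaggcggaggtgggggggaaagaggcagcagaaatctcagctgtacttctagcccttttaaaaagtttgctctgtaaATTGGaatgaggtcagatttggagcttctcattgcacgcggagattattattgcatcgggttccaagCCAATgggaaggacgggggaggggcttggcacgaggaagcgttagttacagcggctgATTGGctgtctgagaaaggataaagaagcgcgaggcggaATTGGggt
Foxd3, chr4:99656049-99656298, plus strand: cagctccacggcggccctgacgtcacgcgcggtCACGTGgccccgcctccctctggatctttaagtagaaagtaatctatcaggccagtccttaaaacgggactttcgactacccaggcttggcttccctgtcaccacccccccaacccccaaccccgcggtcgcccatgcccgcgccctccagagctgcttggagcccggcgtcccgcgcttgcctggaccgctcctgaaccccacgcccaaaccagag
Klf4, chr4:55532476-55532725, minus strand: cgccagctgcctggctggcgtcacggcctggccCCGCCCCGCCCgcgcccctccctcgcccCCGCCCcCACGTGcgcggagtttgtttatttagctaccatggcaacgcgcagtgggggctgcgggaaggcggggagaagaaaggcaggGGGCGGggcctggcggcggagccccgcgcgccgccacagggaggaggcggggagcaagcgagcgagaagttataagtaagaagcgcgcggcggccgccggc
Id2, chr12:25096093-25096342, minus strand: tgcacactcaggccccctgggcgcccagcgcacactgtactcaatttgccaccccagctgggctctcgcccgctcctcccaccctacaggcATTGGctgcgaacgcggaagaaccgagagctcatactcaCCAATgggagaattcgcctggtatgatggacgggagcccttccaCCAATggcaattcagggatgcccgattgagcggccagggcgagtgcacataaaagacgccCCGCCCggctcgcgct
Lhx4, chr1:155742028-155742277, minus strand: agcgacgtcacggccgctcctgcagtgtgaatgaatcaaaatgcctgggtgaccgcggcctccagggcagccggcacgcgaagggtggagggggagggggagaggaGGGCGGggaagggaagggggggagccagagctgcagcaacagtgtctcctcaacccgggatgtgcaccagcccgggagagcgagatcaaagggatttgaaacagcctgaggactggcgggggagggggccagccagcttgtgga
Promoters of the falling and rising members had a similar base composition, with a median GC content of 63.8% and 64.8% and a median of 21 and 17 CpG in 250 bases. All 27025 promoters had medians of 52.0% and 6. A GC box was present in 75.0% of the falling and 64.9% of the rising members, against 57.9% of named genes and 32.9% of all promoters. The CCAAT box stood in 10 of 20 and in 43.2%, against 36.0% of named genes and 34.5% of all promoters, and TATAAA in 1 of 20 and in 8.11%, against 7.24% and 13.0%. The E-box CACGTG was found in 4 of 20 falling and 2 of 37 rising members (5.41%), against 8.06% of named genes and 6.05% of all promoters. It is 1 of several motifs counted, and the contrast was not tested. The E-box CAGCTG stood in 15.0% of falling and 10.8% of rising members, against 11.9% of named genes and 12.8% of all promoters. A match is a run of letters and no evidence of a bound factor. In Foxd3 and Klf4, printed here, the E-box CACGTG is present, and in Sox4, Id2 and Lhx4 these letters do not occur in the window. The letters CAGCTG occur in the windows of Sox4, Klf4 and Id2.

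The SOX family was divided. Besides Sox4, its SoxC relative Sox12 went from 732 and 613 to 24 and 54, at least 3.67-fold lower (adjusted p = 0.000376). Sox6, a SoxD factor of cartilage and of cortical interneurons, went from 471 and 394 to 61 and 85, at least 2.50-fold lower (0.00057). None of these 3 was detected with berberine. Sox10, which drives oligodendrocyte and neural crest differentiation, rose from 15718 and 12724 to 40892 and 35984 (log2 1.18 ± 0.112 SE, adjusted p = 0.00202), and on the values as deposited by 1.44. The Sox10 groups did not overlap. Sox3, a SoxB1 factor of neural progenitors, moved from 303 and 285 to 490 and 465 (1.52 ± 0.133, 0.00164), a change that lost its call as deposited (0.70, 0.0784). Sox15 and Sox30 also rose, by 1.33 and 1.38, and also lost their call as deposited.

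Among the Id, Hes and Hey genes, several of them known as targets of BMP and Notch signalling in progenitors, 5 fell and 1, Hes6, rose. Of all named genes 44.1% were lower. In 3 equal groups by control level the shares were 24.3% in the lowest, 41.1% in the middle and 66.8% in the highest. Id4 lay in the lowest group, Id1 and Hes1 in the middle, and Id2, Hey1 and Hes6 in the highest. Id proteins lack a DNA-binding region and block bHLH activators, and all 3 named Id genes fell. Id2 went from 5753 and 5233 to 511 and 494 (log2 −2.66 ± 0.133, adjusted p = 0.00054). Both Id2 groups were tight, with the berberine arrays above detection. Id1 went from 2105 and 1896 to 473 and 346 (−1.28 ± 0.234, 0.0122), and its call ended without control replicate 1 (0.0714) or control replicate 2 (0.0932). Id4 went from 372 and 345 to 14 and 45, below detection with berberine and at least 2.12-fold lower (0.000649). Its low starting signal keeps that bound small.

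Hes1, the Notch-driven repressor that keeps progenitors undifferentiated, went from 3162 and 2667 to 90 and 188, at least 11.0-fold lower (adjusted p = 0.00217). The berberine arrays of Hes1 differed from each other by a larger ratio than its control arrays did, but both lay far below them. Hey1, a related repressor, went from 6623 and 5480 to 562 and 368 (log2 −3.02 ± 0.273, 0.0018) and stayed detected. Hes6, which counteracts Hes1 and favours neuronal differentiation, rose from 17352 and 16521 to 42757 and 44300 (1.05 ± 0.176, 0.00972). Its groups were well separated, and on the values as deposited it rose by 1.36 (0.0154), but the call ended without control replicate 1 (0.0645) or berberine replicate 2 (0.0522). Among the other bHLH genes, Ascl4 went from 704 and 435 to 895 and 970 (1.72 ± 0.173, 0.00235), and lost its call as deposited (0.75, 0.167). Olig1, of the oligodendrocyte lineage, went from 501 and 425 to 552 and 650 (1.32 ± 0.155, 0.00348) and lost its call as well (0.38, 0.317). In both of these the gap between the groups was narrower than the gap between the control arrays. Ascl3 was detected with berberine only, at 199 and 207 against 82 and 97 in the controls, at least 2.60-fold higher (0.00178).

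**Figure D2:**
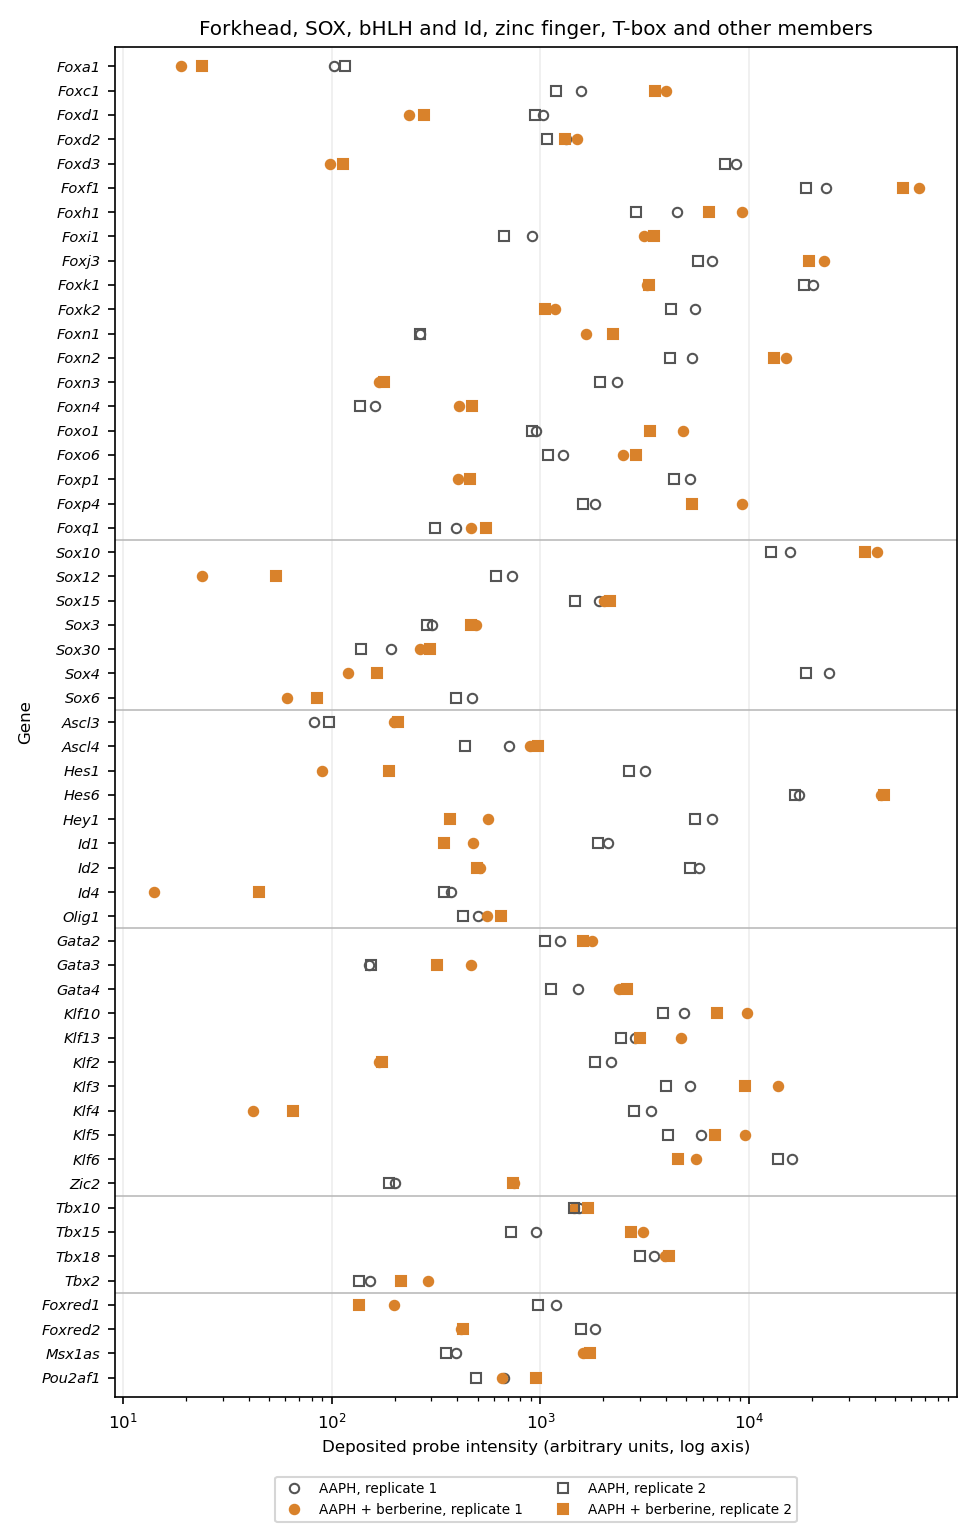
Deposited probe intensity (log axis) of 55 members outside the homeobox class on each of the 4 arrays, with open grey symbols for AAPH alone, filled orange symbols for AAPH with berberine, circles for replicate 1 and squares for replicate 2. Grey lines separate forkhead, SOX, bHLH and Id, zinc finger, T-box and other members. Sox4, Foxd3 and Klf4 show the widest gaps, and most rises are narrower.

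Of the 21 forkhead genes 14 rose (66.7%) and 7 fell (33.3%), with a median of 1.64. Among all named genes 55.6% were higher and 44.1% lower, with a median of 1.22. Foxn1, the regulator of thymic epithelium that is mutated in nude mice, showed the largest rise of the set, from 264 and 266 to 1652 and 2229 (log2 3.58 ± 0.240, adjusted p = 0.000915). Foxo1, a factor held out of the nucleus by insulin and PI3K signalling, rose from 950 and 907 to 4843 and 3367 (2.88 ± 0.155, 0.000607). Foxi1, of the inner ear and kidney, rose from 913 and 670 to 3134 and 3518 (2.88 ± 0.164, 0.000675). All 3 had no overlap between the groups and kept their call as deposited, at 2.86, 2.12 and 2.09. Foxp4 rose from 1816 and 1608 to 9293 and 5351 (2.72 ± 0.195, 0.00106). The berberine arrays of Foxp4 were apart from each other, replicate 1 being the higher.

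Further forkhead rises were those of Foxc1, Foxn4, Foxo6, Foxn2, Foxj3, Foxh1, Foxq1 and Foxd2, by 1.30 to 2.30. Among these, Foxh1, Foxq1 and Foxd2 lost their call as deposited (adjusted p = 0.0928, 0.207 and 0.522). Foxf1, of lung and gut mesenchyme, is a special case because its probes disagreed. The probe with the higher mean level rose from 23482 and 18744 to 65005 and 54609 (1.11 ± 0.111, 0.00232), whereas the other went from 8791 and 7587 to 256 and 284 (−4.45 ± 0.117, 0.000189). Both probes carry the same RefSeq transcript, so the direction of Foxf1 is not settled, although the counts take it as a rise.

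Falls were seen within the same forkhead subfamilies. Foxp1, a relative of Foxp4, went from 5215 and 4356 to 404 and 458 (log2 −2.63 ± 0.139, adjusted p = 0.000586). Foxn3, a repressor related to Foxn1, Foxn2 and Foxn4, went from 2324 and 1928 to 168 and 177 (−2.79 ± 0.113, 0.000372). Both had berberine arrays close together and still above detection. Foxk1 and Foxk2, repressors of autophagy genes, fell by 2.38 and 1.25 on the log2 scale, from 20254 and 18310 to 3242 and 3325 for Foxk1. Foxd1 went from 1029 and 938 to 235 and 278 (−1.05 ± 0.148, 0.0059), with its call lost without control replicate 2 (0.0577). Foxa1 was detected in neither group (103 and 116 against 19 and 24). Although it passed in the fit (0.0265), no fold is given, and the call ended without control replicate 1 (0.117) or control replicate 2 (0.174).

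Among homeobox genes 28 of 34 rose and 6 fell, with a median of 1.75. Of all named genes 55.6% were higher and 44.1% lower. The median control level of the class was log2 8.22, that of all named genes 10.5, and the lowest detected values on the control arrays were 6.66 and 6.55. Among named genes in the lowest of 3 equal groups by control level, 75.1% were higher. The counts on the values as deposited were 20 higher, 6 lower and 8 not called. Pax3, which marks dorsal neural tube and neural crest, had the largest fitted rise of the class, next to that of Meis3. It was detected with berberine only, at 526 and 549 against 123 and 99, at least 7.88-fold higher (adjusted p = 0.00044). The detection p-value of Pax3 in the controls, 0.01003, was just over the threshold of 0.01, and its bound equals its fitted fold. Pax8, by contrast, moved from 391 and 312 to 415 and 546 (1.32 ± 0.198, 0.00703), lost its call as deposited (0.45, 0.304), and also without control replicate 1 (0.0648) or control replicate 2 (0.067).

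Of 12 Hox genes 11 rose and 1 fell, where 55.6% of named genes were higher. On the values as deposited 7 were higher, 1 lower and 4 not called. In the Hoxa cluster Hoxa2 and Hoxa3, which pattern the hindbrain and pharyngeal arches, rose by 1.95 and 2.25 and kept their calls as deposited, while Hoxa4 rose by 1.27 and did not (0.33, adjusted p = 0.35). Hoxa3 went from 1090 and 849 to 2428 and 2391. The groups did not overlap in any of these genes. Hoxc11 was detected with berberine only, at 278 and 277 against 43 and 69, at least 3.74-fold higher (0.00125). Hoxc6, Hoxc9 and Hoxc10 rose by 1.64, 1.74 and 1.71. The Hoxc6 call ended without control replicate 1 (0.0575), and the Hoxc10 call without berberine replicate 1 (0.0909) or berberine replicate 2 (0.114), its control arrays being far apart at 394 and 168. Hoxc10 also lost its call as deposited (0.89, 0.251). Hoxd4 rose from 352 and 333 to 1124 and 730 (2.28 ± 0.223, 0.00218). Hoxd13, of digits and distal limb, had 1089 and 581 against 1072 and 1323, which overlap, and its call (1.61 ± 0.255, 0.00826) ended without control replicate 2 (0.0556) or berberine replicate 2 (0.0726), and as deposited (0.58, 0.346). Hoxb7 rose by 1.29 but not as deposited (0.62, 0.153). Hoxb9 alone among the named Hox genes fell, from 2026 and 1679 to 229 and 327 (−1.78 ± 0.217, 0.00392).

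**Figure D3:**
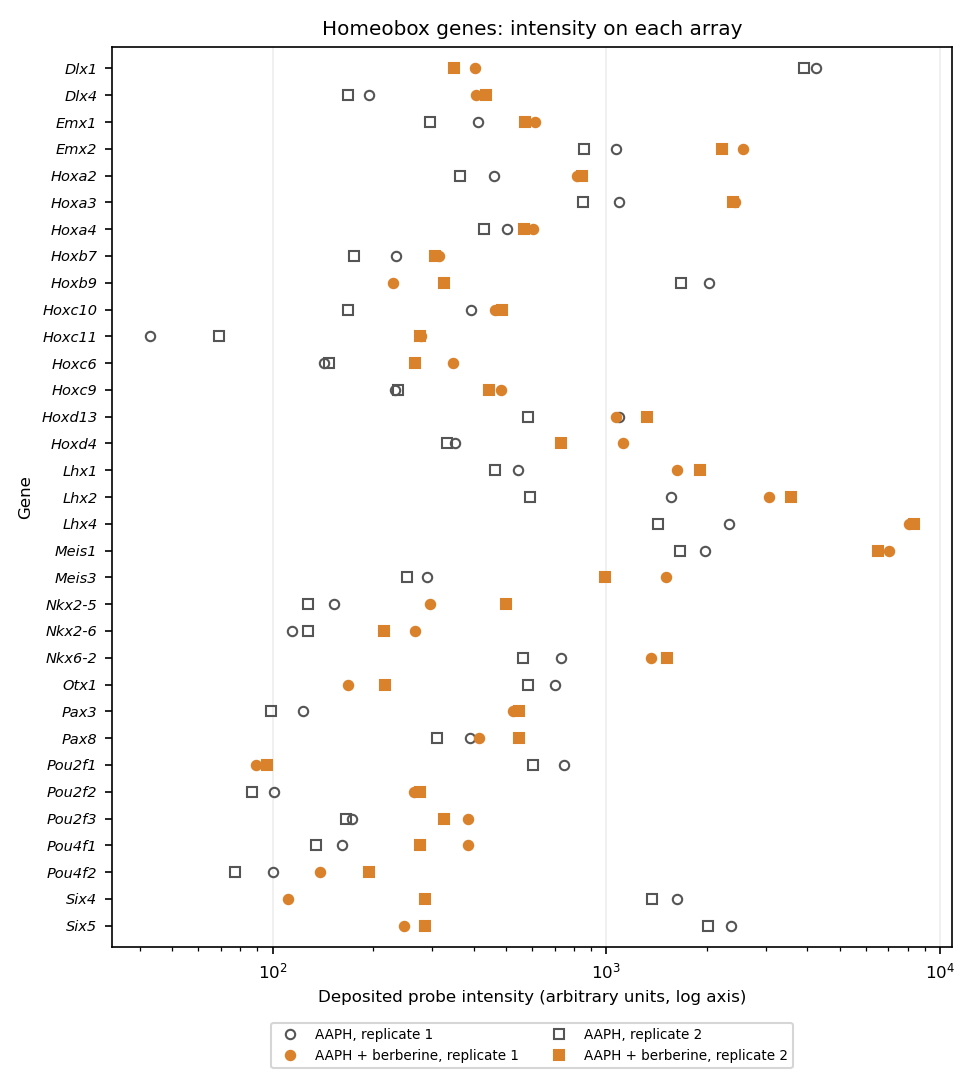
Deposited probe intensity (log axis) of 33 homeobox members on each of the 4 arrays, ordered by family, with open grey symbols for AAPH alone and filled orange symbols for AAPH with berberine. Orange symbols lie right of the grey ones in 26 genes, left in Dlx1, Hoxb9, Otx1, Pou2f1, Six4 and Six5, and overlap in Hoxd13.

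The Hox cofactors of the Meis family rose together. Meis1 went from 1977 and 1659 to 7004 and 6497 (log2 2.58 ± 0.125, adjusted p = 0.000508) and Meis3 from 291 and 253 to 1506 and 990 (2.98 ± 0.197, 0.000894). Both kept their call as deposited, at 1.90 and 2.17. All 3 LIM homeobox genes, which specify motor neurons, forebrain and pituitary, also rose, by 2.61 to 2.79, where 55.6% of named genes were higher. Lhx4 went from 2326 and 1431 to 8075 and 8360 (2.79 ± 0.213, 0.0012), and Lhx1 from 543 and 465 to 1632 and 1907 (2.67 ± 0.166, 0.000793). Lhx2, a selector gene of cortex and eye, had control arrays far apart, at 1558 and 590, against 3076 and 3576 (2.61 ± 0.391, 0.00699). Its call ended as deposited (0.0776), without berberine replicate 1 (0.0619) and without berberine replicate 2 (0.0878).

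Emx2, a patterning gene of the dorsal forebrain, rose from 1069 and 859 to 2575 and 2228 (log2 2.24 ± 0.109, adjusted p = 0.000511). Emx1 rose by 1.66 and lost its call as deposited (0.76, 0.113). Nkx6-2, a ventral neural tube and myelin factor, went from 730 and 561 to 1364 and 1523 (2.13 ± 0.148, 0.000995). The heart gene Nkx2-5 went from 153 and 128 to 297 and 499 (2.13 ± 0.327, 0.00741) and lost its call without control replicate 1 (0.0688) or control replicate 2 (0.0706). Nkx2-6 was detected with berberine only (267 and 216 against 114 and 128, at least 2.74-fold, 0.00703) and lost its call without control replicate 1 (0.0655). In none of these genes did the groups overlap.

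Of the POU genes 4 rose and 1 fell, where 55.6% of named genes were higher and 44.1% lower. Pou2f1, the ubiquitous octamer factor Oct-1, went from 749 and 601 to 89 and 96, below detection with berberine and at least 3.67-fold lower (adjusted p = 0.000725). Its relative Pou2f2 (Oct-2 of B cells and neurons) was detected with berberine only, at 266 and 276 against 101 and 87, at least 3.61-fold higher (0.000784). These paralogs thus had their detection in opposite groups. Pou2f3 rose by 1.72, and Pou4f1 by 1.75 with its call lost without control replicate 1 (0.0583) or control replicate 2 (0.0595). Pou4f2 was detected in neither group (100 and 77 against 139 and 195). No fold is given for it, and its call ended without control replicate 2 (0.0563) or berberine replicate 2 (0.0506).

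The falling homeobox genes outside Hox and POU were Dlx1, Six4, Six5 and Otx1. Dlx1, of forebrain interneurons, went from 4247 and 3921 to 405 and 349 (log2 −2.57 ± 0.165, adjusted p = 0.000843), the largest homeobox fall measured above background. Dlx4 moved the other way, from 194 and 168 to 406 and 436 (1.93 ± 0.116, 0.000737). Six5 went from 2356 and 2015 to 247 and 286 (−2.11 ± 0.124, 0.00071). Six4 went from 1627 and 1371 to 111 and 287 and was not detected with berberine (at least 4.16-fold lower, 0.0261). Its berberine arrays differed widely, and the call ended without control replicate 1 (0.137) or control replicate 2 (0.149). Otx1, of deep-layer cortical neurons, went from 703 and 584 to 168 and 217 (−0.99 ± 0.148, 0.00694), and its call ended likewise (0.0565 and 0.0654).

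Among Krüppel-like factors 4 rose (57.1%) and 3 fell (42.9%), where 55.6% of named genes were higher and 44.1% lower. Klf2, which limits proliferation in endothelium and T cells, went from 2176 and 1826 to 169 and 174 (log2 −2.73 ± 0.125, adjusted p = 0.000464), and Klf6 from 16117 and 13753 to 5551 and 4584 (−1.46 ± 0.111, 0.00119). Klf6 and Klf2 were detected in both groups, and Klf4 in the controls only. In the fit the rises were smaller than the falls of Klf2 and Klf4, but that of Klf3 exceeded the fall of Klf6. The rises lost their call as deposited except that of Klf3, which went from 5205 and 3980 to 13771 and 9539 (1.68 ± 0.135, 0.00136). Klf5, a factor of epithelial and embryonic stem cells, went from 5852 and 4071 to 9511 and 6861 (1.12 ± 0.166, 0.00674). Klf10, Klf13 and Klf5 rose by 1.37, 1.30 and 1.12, and by 0.92, 0.52 and 0.73 as deposited (adjusted p = 0.0866, 0.299 and 0.178). Klf13 also lost its call after median centring (0.0639). Zic2, a zinc finger factor of the neural plate, rose from 202 and 187 to 748 and 740 (2.73 ± 0.117, 0.000405), with both groups tight.

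Gata3, a T cell and sympathetic neuron factor, went from 151 and 155 to 464 and 321 (log2 1.99 ± 0.268, adjusted p = 0.00522), with its call lost without control replicate 1 (0.058) or control replicate 2 (0.0503). Gata4, of heart and gut, rose by 1.88 and lost its call as deposited (0.93, 0.0655). The Gata2 probe with the higher mean level went from 1240 and 1048 to 1770 and 1604 (1.59 ± 0.111, 0.001), and the other from 632 and 493 to 178 and 186 (−0.91 ± 0.113, 0.00402). As deposited the rising probe lost its call (0.56, 0.151), whereas the falling one kept it (−1.62, 0.0146). Both probes carry the same RefSeq transcript, so Gata2 also has no settled direction.

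Tbx15, of skeleton and brown fat, rose from 951 and 721 to 3105 and 2731 (log2 2.65 ± 0.111, adjusted p = 0.000394), the only T-box rise that kept its call as deposited. Tbx10 had 1526 and 1452 under AAPH alone, against 1447 and 1687 when berberine was added. Those intensities overlapped, and its difference was 1.14 after quantile normalization but 0.07 as deposited (0.849), with the call lost without control replicate 1 (0.0648) or control replicate 2 (0.0507). Tbx2 rose by 1.30 and lost its call as deposited (0.0991), without control replicate 1 (0.105) and without control replicate 2 (0.102). The probes of Tbx18 disagreed, 1 moving from 3511 and 2993 to 3938 and 4120 (1.05 ± 0.148, 0.00589, and 0.0512 without control replicate 1) and the other from 1787 and 1550 to 405 and 366 (−1.09 ± 0.134, 0.00401). As deposited, the rising Tbx18 probe lost its call (0.31, 0.369) and the falling one kept it (−2.11, 0.00626). All but 4 members had a single named probe, so their direction could not be checked on another. How often the probes of other named genes disagree is not given here. Of the 4 members with several named probes, 3 had probes in opposite directions. The exception was Foxred1, whose probes both fell. The probe with the higher mean level went from 1191 and 969 to 198 and 135 (−1.94 ± 0.327, 0.00973), with its call lost without control replicate 1 (0.0798) or control replicate 2 (0.0851), and the other was at least 9.58-fold lower.

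Foxred2 went from 1816 and 1560 to 414 and 427 (log2 −0.94 ± 0.115, adjusted p = 0.00394). Msx1as rose from 392 and 354 to 1593 and 1736 (2.99 ± 0.152, 0.00055). The files do not say whether its probe is read on the antisense strand only. Pou2af1 overlapped between groups as deposited (672 and 493 against 651 and 948), and its call (1.44, 0.00985) ended without control replicate 1 (0.0782) or control replicate 2 (0.0894).

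**Figure D4:**
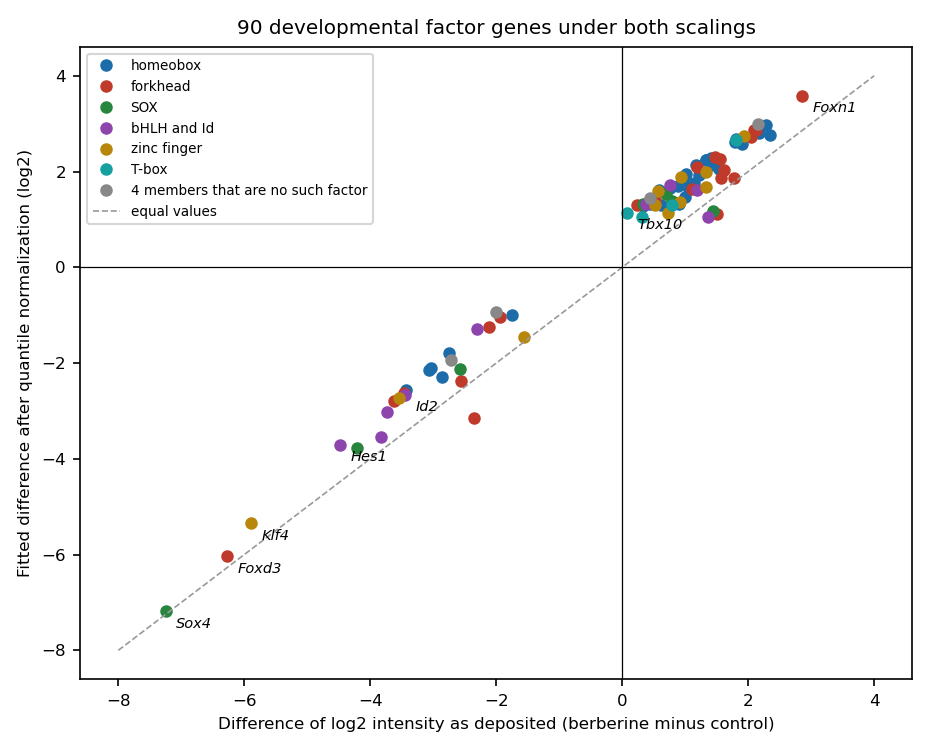
Difference of each of the 90 members in log2, berberine minus control, on the values as deposited (horizontal) and after quantile normalization (vertical), coloured by class. All points lie in the lower left or upper right, and most lie above the dashed line of equal values, with Tbx10 moving from 0.07 to 1.14 and Sox4 from −7.25 to −7.19.

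The same dependence on scaling stands in the authors' deposited table. There 25 of the 64 members that rose have a log2 ratio of at least 1 although the group means listed beside it differ by less than 1 on the log2 scale. Counted in either direction, this holds for 25 of the 90 members and for 1938 of all 8519 named genes. For Tbx10 the authors' deposited table gives a ratio of 1.09, and its own means give 0.08. The table's ratios were therefore not formed from its listed means, and the way they were formed is not stated in the labels or headers.

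How the share of rises stood to level depended on which level was used. By control level, which is itself a term of the difference, 47 of the 90 members lay in the lowest of 3 equal groups of named genes. There 87.2% rose, in the middle group 55.6% of 27, and in the highest 8 of 16, where the shares of named genes were 75.1%, 58.7% and 33.1%. By the mean over all arrays the order turned. Members rose in 68.3% of 41 in the lowest group, 65.6% of 32 in the middle and 88.2% of 17 in the highest, and named genes in 45.6%, 57.4% and 63.8%. By probe identifier, 54 members had PH_mM probes, of which 75.9% rose, 28 had mMC probes (64.3%) and 8 had mMR probes (62.5%). Among named genes these shares were 65.8%, 42.9% and 39.9%. The part of probe series in the members' directions was not tested.

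The pathways around these factors were described from 6 lists, in which every named gene passed in the fit. Listed genes without a named probe were not analysed, which does not mean that the arrays lacked them. For each list the genes with the largest fitted fall and rise are named, a choice made after their values were seen. Of 26 Notch pathway genes 16 had a named probe, 8 higher and 8 lower, with a median of 0.02. As deposited 6 were higher, 8 lower and 2 not called, with a median of −0.65. Mib1, the ubiquitin ligase that activates Notch ligands, was at least 195-fold lower, and Rbpj, the DNA-binding partner of activated Notch, rose by 2.52 ± 0.134. Of 25 BMP and TGF-β genes 15 had a named probe, 10 higher and 5 lower (median 1.26). As deposited 5 were higher, 5 lower and 5 not called. The ligand gene Bmp2 was at least 59.0-fold lower, and another ligand gene, Bmp4, rose by 2.60 ± 0.181. Of 10 E proteins and other bHLH partners 7 had a named probe, 2 higher and 5 lower (median −4.14). As deposited 1 was higher, 5 lower and 1 not called. The E protein gene Tcf3 was at least 154-fold lower, with 20461 and 17220 against 32 and 76, and Mxi1, a partner of Max, rose by 1.58 ± 0.183.

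Of 12 TALE and Hox cofactors 6 had a named probe, 5 higher and 1 lower (median 1.61). As deposited 3 were higher, 1 lower and 2 not called. Pbx4 rose by 2.53 ± 0.114 and Pbx3 was at least 18.4-fold lower. Of 6 Groucho corepressors 5 had a named probe, 2 higher and 3 lower on both scales (median −1.12). Tle4 was up by 2.80 ± 0.119 and Tle3 at least 5.75-fold lower. Polycomb and trithorax genes hold Hox genes silent or active, and 20 of 32 had a named probe, 5 higher and 15 lower (median −1.59). As deposited 1 was higher, 14 lower and 5 not called. Of these, Wdr5 was at least 36.5-fold lower and Pcgf2, a Polycomb RING finger gene, rose by 1.59 ± 0.234, with its call lost as deposited (1.09, adjusted p = 0.119). Of all named genes 55.6% were higher and 44.1% lower, and as deposited 31.1% and 43.3%.

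Of 13 markers of neural stem and progenitor cells 5 had a named probe, 3 higher and 2 lower. Nes, Sox2 and Pax6 have no named probe and were not analysed here, so the labelled identity could be checked only on others. Msi1, an RNA-binding protein of progenitors, had 2214 and 1834 against 2153 and 2391, which overlap. Prom1 went from 283 and 236 to 591 and 639, and Slc1a3, a glutamate transporter of radial glia, from 381 and 337 to 612 and 699. Sox9, a SoxE factor of stem cells and glia, went from 1091 and 897 to 13 and 36, not detected with berberine and at least 5.15-fold lower. Bmi1, a Polycomb gene needed for stem cell renewal, went from 8263 and 7092 to 647 and 619 (−2.91 ± 0.114). All 5 were detected in the controls. Markers of other cells with a named probe were counted as well. Neuron markers were higher in 6 and lower in 2 of 8, astrocyte markers higher in 5 of 5, oligodendrocyte lineage markers higher in 7 of 7, endothelial markers higher in 3 of 3, fibroblast markers higher in 1 and lower in 3 of 4, and microglia and macrophage markers higher in 1 and lower in 2 of 3. On the values as deposited the numbers called higher were 3 of 8, 1 of 5, 3 of 7, 0 of 3, 1 of 4 and 1 of 3, and among progenitor markers 1 of 5. Among all named genes 55.6% were higher and 44.1% lower in the fit, and 31.1% were higher as deposited. In the lowest of 3 equal groups of named genes by control level, 75.1% were higher in the fit. The lists of oligodendrocyte markers and members share Sox10 and Olig1. Their part in the members' values was not tested.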

How the data were processed

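RNA of C17.2 cells was column-purified and labelled with Cy5 for single-colour arrays, per the labels. The authors deposited linear intensities of 26423 probes on each of the 4 arrays, with background handling and scaling not given in the sources used here. A deposited sheet of 9800 called probes gives, per the file headers, detection p-values, mean normalized intensities and a log2 ratio for groups G1 and G3. G1 means differed from the control arrays by a median of 0.273% and G3 means from the berberine arrays by 0.662%, so G1 was read as control. Array medians were 333 and 273 in the controls and 189 and 206 with berberine, and the number of arrays limits the precision. The tables held 0 columns of values that belong to no sample.

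Intensities were floored at 1, log2-transformed, quantile-normalized and fitted across all probes (limma 3.58.1, R 4.3.3), with Benjamini-Hochberg adjustment and a threshold of 0.05. Quantile normalization moved the median difference of all probes to 0.39, where the deposited scale gave 0.13 and centring on medians 0.74, and every change is read relative to it. Where several named probes carried a gene, the one with the highest normalized level, averaged over the 4 arrays, stood for it. A probe counted as detected at a deposited detection p-value under 0.01, and bounds used limits of log2 6.66 and 6.55 on the control and 7.31 and 6.81 on the berberine arrays. These limits are the lowest detected values and no confidence limits.

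The members and lists (6 pathway lists, 7 marker lists) were chosen with earlier results of these data known. Values on every array were to be given for the 10 largest falls and rises, the member of largest change in each family of at least 2, 25 neural factors (of 55 listed, the other 30 having no named member here) and genes whose probes disagree, and the rest by name and range. Same-numbered arrays did not deviate together (correlation −0.0156 over all probes). Promoters came from RefSeq, GRCm38.p6. All 90 members were found in its gene table by Entrez identifier, with 1 newer symbol (Msx1os for Msx1as). The values of a few members are not reported here, although the counts and medians include them.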

Additional observations from a re-analysis of the deposited data

How the results depend on the processing

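With the values as deposited, the members called higher numbered 39 in place of 64 and the median difference was 0.84 in place of 1.45, while the 26 falls stayed called. The median was 1.45 after median centring, 1.31 with log2(value + 50), 1.57 for probes with a mean of at least 100, and 1.42 with the mean or the dimmest of a gene's probes. The dimmest probe gave 61 members higher and 29 lower, and the mean of the probes 61 and 27. Restricted to genes detected in both groups, a filter that the falls themselves decide, 16 members were lower, 58 higher, and the median was 1.62. Leaving out an array in turn gave 53 to 62 higher, 20 to 26 lower and medians from 1.39 to 1.51, with the group of 1 array assumed to vary like the other. In these fits 21 members lost their call in at least 1, 15 that had risen and 6 that had fallen, and all kept their direction. The share of all named genes that lost a call in those fits is not given here. With the other choices of probe, direction changed in Foxf1 (−1.67 with the mean of its probes, −4.45 with the dimmest), Tbx18 (−0.020 and −1.09) and Gata2 (−0.91 with the dimmest), whose probes disagree, and Gata2 lost its call with the mean (adjusted p = 0.0602). With the replicate number as a block, a pairing that the arrays do not bear out, 64 members were higher and 26 lower, with a median of 1.45. With the floor of 32 and with the trend and robust settings of eBayes the counts were also 64 and 26. Few arrays limit all of these values, and levels near the array background, where many homeobox genes lie, limit the size of a measurable fall.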
